A study of Mus musculus with 2 samples.

Results

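The macrophages of prostate tissue with tumour lesions, from mice of 2 genotypes, were described as cells selected on the complement genes C1qa, C1qb and C1qc. A cell was counted as a macrophage when these 3 genes together gave at least 10 of every 10000 of its unique molecular identifiers (UMIs, each marking 1 captured RNA molecule), when at least 1 of Adgre1, Csf1r and Mrc1 had a UMI, and when fewer than 2 of the T cell genes Cd3d, Cd3e and Cd3g had one. Cells had over 200 and under 7000 genes, under 15% mitochondrial UMIs and at least 1000 UMIs. The rule found 311 of 9854 cells in the DoubleTg library, or 3.16% (95% exact binomial interval 2.82 to 3.52), and 407 of 9262 cells in the TripleTg library, or 4.39% (3.99 to 4.83). In all, 718 of 19116 cells were macrophages. All deposited TripleTg cells already met the limits on genes and mitochondrial share, and not all DoubleTg cells did. What this does to the 2 shares was not tested.

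DoubleTg mice (hHGFtg:H11hMET/+:PBCre4) carried a human HGF transgene expressed throughout the body and a human MET transgene behind a stop cassette, which a probasin-driven Cre removes in prostate epithelium. TripleTg mice carried both transgenes and the Cre and, in addition, a Ctnnb1 L(Ex3)/+ allele, from which the Cre removes exon 3 so that β-catenin is stabilised. The Cre is therefore directed to epithelial cells and not to the macrophages described here. The labels call the DoubleTg tissue prostatic adenocarcinoma and the TripleTg tissue prostatic carcinoma, and they give no age, hormone treatment or number of animals. Per the study, the DoubleTg tissue held high-grade prostatic intraepithelial neoplasia as well as cancer. It describes the TripleTg tissue as cancer. Each genotype was represented by 1 library. No difference below could be set against replicates or tested, and genotype, type of lesion and library cannot be told apart. Per the study's methods the mice were of mixed C57BL/6 and C3H SCID background, in both groups. Intervals cover counting error only.

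Macrophages take up dead cells and debris, digest them in lysosomes and present peptides on MHC class II proteins to T cells. They also release chemokines and cytokines that draw in and instruct other immune cells. In tumours they are found along a range, from cells with inflammatory and antigen presenting programmes to cells loaded with lipid that carry Trem2, Spp1 and Gpnmb. C1q, the first component of the classical complement pathway, is made mainly by tissue macrophages.

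The depth of the macrophages was alike in the 2 libraries. Their median was 10503 UMIs in DoubleTg (quartiles 8055 and 14886) and 10453 in TripleTg (7377 and 15737), with 2358 and 2568 genes per cell. The summed macrophage counts were 4032188 UMIs and 5256156 UMIs, from which levels are given per 1000000 UMIs (CPM). Of all cell barcodes, 30 occurred in both libraries, and none was a macrophage in both. RNA of epithelial cells was present in the macrophages. The 8 epithelial genes, keratins and junction genes among them, summed to 3187 CPM in DoubleTg and 3276 CPM in TripleTg macrophages, 18.3% and 20.04% of their level in epithelial marker cells, and none was at 0. The sums were alike, but the typical cell differed. The median was 5.67 epithelial UMIs per 10000 in DoubleTg macrophages (quartiles 3.77 and 9.43) and 10.4 in TripleTg ones (7.52 and 16.5). Secretory genes of the prostate and seminal vesicle differed between the macrophages in the same direction as between the other cells. Sbp, a secretory protein gene, was at 9798 CPM in DoubleTg macrophages against 49022 CPM in the other DoubleTg cells, and it was at 0 in TripleTg macrophages. Svs4, a seminal vesicle protein gene, was at 3555 CPM in TripleTg macrophages, against 24419 CPM in the other cells.

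The genes of the rule chose the cells and are given as a description. C1qa was at 3509 CPM in DoubleTg and 5118 CPM in TripleTg macrophages, C1qb at 2324 and 2892 CPM, and C1qc at 1445 and 2075 CPM. All 3 were below 10 CPM in the other cells of both libraries. Csf1r, the receptor for the growth factor on which macrophages depend, was at 370 and 399 CPM. Adgre1, which encodes the F4/80 antigen, was at 211 and 187 CPM. Mrc1, the mannose receptor, was at 77.4 CPM in DoubleTg and 164 CPM in TripleTg. All 3 receptors were found in 55 DoubleTg and 207 TripleTg cells, and 1 of them alone in 67 and 53 cells. Cells just over the complement threshold, at 10 to 15 UMIs per 10000, numbered 15 in DoubleTg and 6 in TripleTg, and their summed level of the macrophage gene Ms4a7 was 305 and 169 CPM. The cells just under it, at 5 to 10, numbered 15 and 14, with Ms4a7 at 135 CPM in both libraries and Krt8, a luminal keratin, at 3464 and 2512 CPM. The cells at 50 or more, 228 and 317 of them, had Ms4a7 at 1040 and 1353 CPM and Krt8 at 200 and 587 CPM.

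The name macrophage was checked against markers beyond the rule, as a description, since the rule already picks cells rich in such genes. Of 18 macrophage identity genes, 16 in DoubleTg and 18 in TripleTg were above their level in the other cells of the same library. Many genes were so placed. Of 2775 genes at 50 CPM or more in either library, 1632 were at or above the other cells in the library where they were higher. Among 2067 genes at 50 CPM or more in macrophages of both libraries, leaving out the genes of the rule, the 15 that stood highest over the other cells, by the lower of the 2 libraries' folds, were Ms4a7, Retnla, Ccl4, Dcstamp, Ccl8, Pf4, Ccl3, C3ar1, Ly86, Cd72, Lyz2, Il10, Fcgr1, AF251705 and C5ar1. Ms4a7 stood 740-fold over the other cells in DoubleTg and 489-fold in TripleTg. The chemokine genes Ccl4 and Ccl3 stood 591-fold and 468-fold over them in DoubleTg, and 372-fold and 254-fold in TripleTg. Il10, which encodes a cytokine that limits inflammation, stood 617-fold and 181-fold over them. The receptors for the complement fragments C3a and C5a, C3ar1 and C5ar1, stood 321-fold and 585-fold over the other cells in DoubleTg and 217-fold and 170-fold in TripleTg. In all, 205 genes were at 50 CPM or more and at 10 times or more the level of the other cells in both libraries. Retnla is a case apart, since its 844 DoubleTg UMIs came from 6 cells and its 513 TripleTg UMIs from 5 cells. Its log2 ratio of TripleTg over DoubleTg was -1.10, and it turned to 0.80 with at least 20 complement UMIs per 10000 and moved to -8.60 in the macrophages with the lower share of epithelial, secretory and Wnt target UMIs. The most abundant macrophage transcript in each library was Fth1, the heavy chain of the iron store ferritin, at 42669 and 42953 CPM.

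Markers of other cell types were summed over the macrophages by list. The T and NK cell list summed to 359 CPM in DoubleTg and 271 CPM in TripleTg, against 46.2 and 17.1 CPM in the other cells, and Il7r gave 357 and 257 CPM of it. The NK cell gene Klrb1c was at 0 in both libraries, as was Cd3d, whose absence the rule largely sets. The dendritic cell list summed to 280 CPM in DoubleTg and 53.8 CPM in TripleTg, against 37.2 and 27.0 CPM in the other cells, with no gene at 0, and Ccr7, a homing receptor, gave 248.5 and 33.9 CPM of it. Flt3, Xcr1 and Clec9a, which mark some dendritic cells, were under 2 CPM in both. Of the 8 dendritic genes, 5 in DoubleTg and 7 in TripleTg were above their level in the other cells. The 2 that reached 20 CPM in either library, Ccr7 and Siglech, were both at least 2-fold lower in TripleTg. The neutrophil list summed to 19.3 CPM in DoubleTg and 422 CPM in TripleTg macrophages, against 16.8 and 812 CPM in the other cells, with Retnlg and Camp at 0 in DoubleTg. The haemoglobin gene Hbb-bs was at 2.98 CPM in DoubleTg and 1318 CPM in TripleTg macrophages, against 301 and 1117 CPM in the other cells. The B and plasma cell list summed to 2.73 and 24.4 CPM, and the mast cell list to 3.22 and 7.80 CPM. The fibroblast list summed to 111 and 330 CPM, the endothelial list to 19.1 and 79.9 CPM, and the smooth muscle list to 11.4 and 36.7 CPM. Without the macrophages that had a UMI of a dendritic gene, which left 183 and 321 cells, the log2 ratio of TripleTg over DoubleTg was -1.78 for H2-Aa, -8.64 for Il12b and 5.05 for Spp1, against -1.74, -6.18 and 4.40 with them. Without those holding 10 or more UMIs of globin genes, S100a8 and S100a9, which left 311 and 399 cells, it was -1.71, -6.13 and 4.43. The part of the other cell types in the differences below was not tested.

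Of all genes, 5236 reached 20 CPM in DoubleTg or TripleTg macrophages, and the 2 libraries were compared over these. In TripleTg macrophages 441 genes were at least 2-fold higher (8.42% of the genes) and in DoubleTg macrophages 300 genes were (5.73%). These shares are the background against which the counts of each gene group are read. The median log2 ratio of TripleTg over DoubleTg over all 5236 genes was 0.15, so ratios are to be read against that shift. Scaling by the trimmed mean of M values (TMM) moved the median to -0.01 and the counts to 349 higher and 392 lower, which turned the balance of the calls. Both libraries gave ribosomal protein genes a like share of UMIs, 16.8% and 16.2%, and none of the 81 compared passed 2-fold.

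MHC class II genes were lower in TripleTg macrophages. Of 8 compared, 6 were at least 2-fold lower and none was higher, with a median log2 ratio of -1.83. H2-Aa was at 11404 CPM in DoubleTg (counting interval 11300 to 11509) and 3421 CPM in TripleTg (3371 to 3472), H2-Ab1 at 10301 and 2702 CPM, and H2-Eb1 at 11222 and 2788 CPM. These genes encode the chains of the class II proteins that hold the peptide. Cd74, the chain that occupies the groove until the peptide is loaded, was at 29750 and 10150 CPM, and after Fth1 it was the most abundant transcript of the DoubleTg macrophages. Ciita, the factor that switches class II genes on, was low in both, at 22.1 and 4.95 CPM (log2 ratio -2.16, -2.85 to -1.51). H2-DMa and H2-DMb1, which load the peptide, differed less, with log2 ratios of -0.71 and -0.69. H2-Aa, H2-Ab1 and H2-Eb1 lie within the H2 region on chromosome 17, H2-Aa at chr17:34282744-34287823, while Ciita lies at chr16:10480059-10528418 (gene spans on GRCm38). The other leukocytes differed in the same direction, with H2-Aa at 2357 CPM in 575 Ptprc-positive DoubleTg cells and 452 CPM in 599 TripleTg ones. In epithelial marker cells H2-Aa had a UMI in 2.38% and 5.21% of cells thinned to 2000 UMIs, against 98.3% and 68.7% of the macrophages. Class I genes were closer between the libraries, B2m at 2440 and 2169 CPM and H2-K1 at 1520 and 1072 CPM, and the other cells held both at lower levels in TripleTg too. The costimulatory genes Cd86 and Cd40, whose products help to activate T cells, were lower in TripleTg, Cd86 at 666 against 256 CPM and Cd40 at 108 against 24.7 CPM. H2-Q7 was lower too, at 175 against 34.8 CPM, and it was also lower in the other cells, at 38.8 against 10.6 CPM. Of the 10 class I and costimulation genes compared, 4 were at least 2-fold lower and none was higher.

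The windows upstream of class II genes are shown because 6 of 7 RefSeq promoters (build GRCm38.p6) of listed class II genes, 1 for each of 6 genes, held GATTGG, the core of the Y box, on either strand within 250 bases before the start. Of all 32851 promoters, 14.6% held it. The H2-Aa window lies on the minus strand at chr17:34287824-34288073 and the H2-Eb1 window on the plus strand at chr17:34305617-34305866. They are printed 5′ to 3′ with the match in capitals, and H2-Eb1 has a match on each strand.
H2-Aa: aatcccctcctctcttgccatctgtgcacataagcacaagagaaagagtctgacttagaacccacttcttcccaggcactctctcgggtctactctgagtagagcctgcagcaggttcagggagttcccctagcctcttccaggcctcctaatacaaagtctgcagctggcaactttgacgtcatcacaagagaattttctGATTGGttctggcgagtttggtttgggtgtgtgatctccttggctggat
H2-Eb1: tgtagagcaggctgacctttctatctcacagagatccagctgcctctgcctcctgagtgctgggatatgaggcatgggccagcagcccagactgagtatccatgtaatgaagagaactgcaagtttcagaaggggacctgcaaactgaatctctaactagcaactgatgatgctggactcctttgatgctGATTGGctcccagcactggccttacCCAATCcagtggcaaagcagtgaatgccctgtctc
A match is a run of letters and not a measured binding site. The motifs shown here and below were chosen from 8 strings searched, after the values had been seen.

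Class II levels differed not only in their mean but in their spread over cells. With each cell thinned to 2000 UMIs, H2-Aa, H2-Ab1, H2-Eb1 and Cd74 together gave a median of 735 UMIs per 10000 over 296 DoubleTg macrophages (quartiles 496 and 990). The median over 393 TripleTg macrophages was 185, with quartiles of 15 and 465. No DoubleTg macrophage was at 0, and 37 TripleTg macrophages (9.41%) were. Unthinned, 3 of 311 DoubleTg (0.965%) and 111 of 407 TripleTg macrophages (27.3%) were under 20 UMIs per 10000. The 2 distributions overlapped, since the 95th percentile of TripleTg macrophages, 745, was close to the DoubleTg median.

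**Figure D1:**
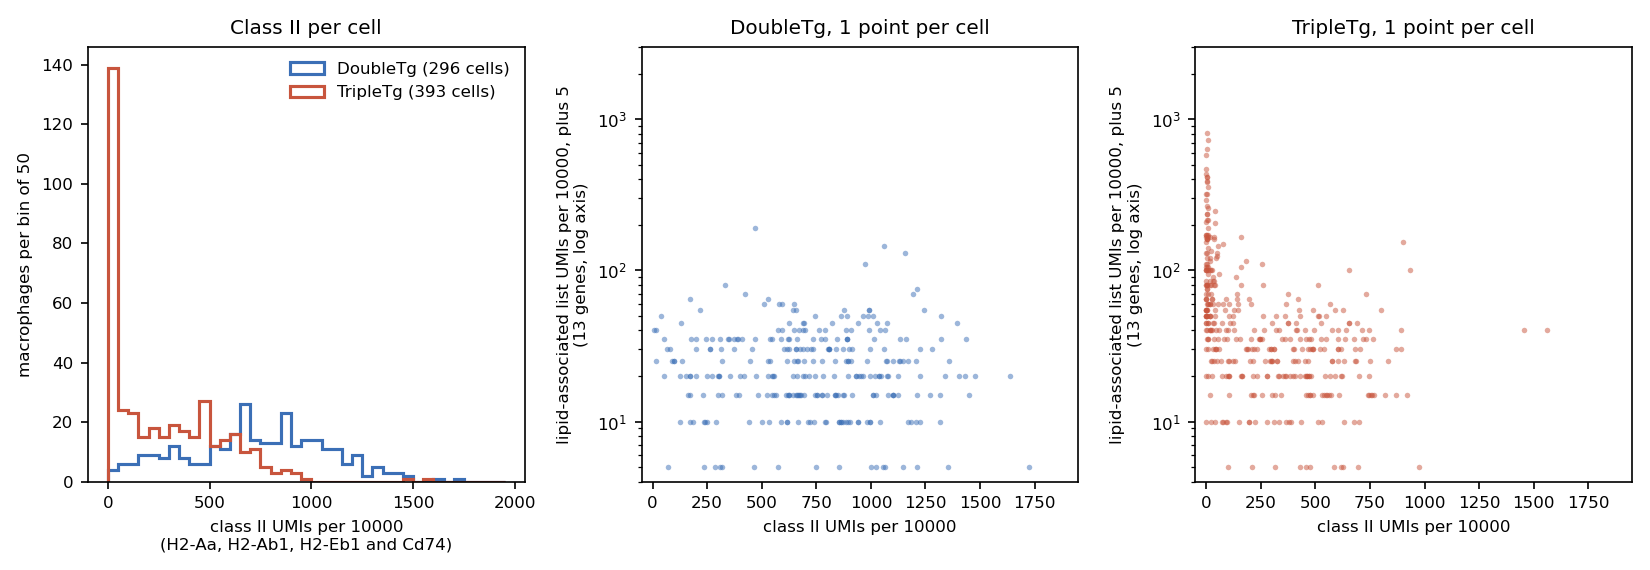
Class II UMIs per 10000 in macrophages thinned to 2000 UMIs. The left panel counts cells in bins of 50 for DoubleTg (blue, 296 cells) and TripleTg (red, 393 cells), and the other panels plot each cell's class II level against its UMIs from 13 lipid-associated genes plus 5 on a log axis. TripleTg cells pile up near 0 on the class II axis, and the cells with the most lipid-associated UMIs lie there.

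Genes of lipid-associated macrophages were higher in TripleTg. Of 16 compared, 8 were at least 2-fold higher and none was lower by as much, and the median log2 ratio was 0.98. Spp1, which encodes the secreted glycoprotein osteopontin, was at 154 CPM in DoubleTg (142 to 166) and 3240 CPM in TripleTg (3192 to 3289). It had a UMI in 17.6% and 42.7% of the thinned macrophages, against 0.17% and 2.58% of the epithelial marker cells, and 10 cells gave 54.2% of its TripleTg UMIs. Gpnmb, a glycoprotein of stressed lysosomes, was at 6.94 and 507 CPM, with a UMI in 8 of 311 and 145 of 407 cells before thinning. Trem2, a receptor for lipids and lipoproteins, was at 165 and 513 CPM and was spread over more cells, 185 and 313 of them. Fabp5, a fatty acid carrier, was at 36.5 and 1057 CPM, and the other cells held it at 106 and 488 CPM. Apoe, the lipoprotein with which macrophages export cholesterol, was abundant in both, at 23931 and 35143 CPM. The scavenger receptor Msr1 was at 30.3 and 121 CPM. Cd36, another scavenger receptor, was the member that was lower in TripleTg, at 129 against 84.1 CPM. Fabp4, a fatty acid carrier counted among the 8, and Cd9 were below the level of the other cells in both libraries.

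Lysosomal genes followed the same direction, with 3 of 15 compared at least 2-fold higher, none 2-fold lower and a median log2 ratio of 0.60. The proteases Ctsd and Ctsl differed most among the abundant members. Ctsd was at 616 and 3074 CPM and Ctsl at 282 and 2052 CPM. Both were below the other cells in DoubleTg macrophages (633 and 466 CPM) and above them in TripleTg macrophages (551 and 179 CPM). Ctsk, a collagen-degrading cathepsin, had 1 UMI in DoubleTg and was at 28.2 CPM in TripleTg, where 10 cells gave 86.5% of its UMIs. Its log2 ratio was 5.24 with the DoubleTg sum set to a floor of 3 counts. The interval on the counts as they are was 4.33 to 12.14. Ctsb was at 1767 and 3114 CPM. Lgmn, a protease, was lower in TripleTg, at 1004 against 849 CPM. Lyz2, the lysozyme of macrophages, was among the largest differences in level, at 1985 CPM in DoubleTg and 15158 CPM in TripleTg. It had a UMI in 278 of 311 and 405 of 407 cells, and the 10 cells with the most UMIs gave 14.2% of the TripleTg total. Lyz2 was at 7.91 and 82.9 CPM in the other cells.

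The Ctsd window is shown because 5 of 15 promoters of lysosomal genes held the E box CACGTG, against 6.02% of all promoters. It lies on the minus strand at chr7:142387828-142388077 and holds the string at 2 places, in capitals. The GENCODE span of Ctsd reaches to chr7:142388038. By that annotation much of the window, with the match nearer the RefSeq start, lies inside the gene.
Ctsd: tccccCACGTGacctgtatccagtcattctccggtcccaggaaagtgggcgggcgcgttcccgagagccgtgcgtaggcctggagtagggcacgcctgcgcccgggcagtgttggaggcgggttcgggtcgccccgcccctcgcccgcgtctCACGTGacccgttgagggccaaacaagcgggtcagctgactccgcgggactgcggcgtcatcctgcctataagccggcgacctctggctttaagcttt

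Inflammatory genes were lower in TripleTg macrophages in part. Of 13 compared, 7 were at least 2-fold lower and none was higher, with a median log2 ratio of -1.17. Il12b, a subunit of interleukin 12 and interleukin 23, was at 401 CPM in DoubleTg (381 to 421) and 5.52 CPM in TripleTg (3.70 to 7.92). It was found in 64 and 5 cells, and 10 cells gave 63.6% of the DoubleTg UMIs. The other Ptprc-positive cells held Il12b at 35.0 and 0.12 CPM. Il1b, a cytokine that starts inflammation, was at 3849 and 1024 CPM and had a UMI in 74.7% and 35.9% of the thinned cells. The chemokines Ccl4 and Ccl3, which attract monocytes and T cells, were at 5331 and 1178 CPM and at 1102 and 310 CPM. Tnf was at 474 and 194 CPM. The neutrophil chemokines did not share this difference. Cxcl2 was at 7996 and 7789 CPM and Cxcl1 at 1908 and 1980 CPM, with log2 ratios of -0.04 (-0.06 to -0.02) and 0.05 (0.01 to 0.10), and Cxcl3 was at 421 and 558 CPM. Il1a, Ptgs2 and Nlrp3 were lower by less than 2-fold, Ptgs2 in TripleTg was at 297 CPM against 302 CPM in the other cells, and Nos2 had 0 UMIs in DoubleTg and 1 in TripleTg.

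Upstream of Cxcl2 the window on the plus strand at chr5:90903649-90903898 held a κB site string (GGGA, any base, TTTCC, searched on both strands), shown in capitals. Of 12 promoters of inflammatory genes, 4 held it, against 0.356% of all promoters. The 4 were those of Cxcl1, Cxcl2 and Cxcl3 and of Il6, a cytokine gene that was lower in TripleTg, at 31.2 against 13.9 CPM. The window of Cxcl2 is shown as that of the list's most abundant gene. Its last bases, past the match, lie inside the GENCODE span, which begins at chr5:90903871.
Cxcl2: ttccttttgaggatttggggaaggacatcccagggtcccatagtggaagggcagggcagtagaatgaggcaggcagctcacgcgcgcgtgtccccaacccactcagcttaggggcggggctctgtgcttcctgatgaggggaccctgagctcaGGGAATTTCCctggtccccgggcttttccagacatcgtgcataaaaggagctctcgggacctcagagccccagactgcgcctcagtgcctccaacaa

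Among the other chemokines and receptors, 4 of 11 compared were at least 2-fold higher and 3 were lower. Ccl6 and Ccl9 were higher in TripleTg, at 57.3 against 478 CPM and at 89.8 against 318 CPM, as were Cxcl14, at 148 against 609 CPM, and Ccr1, a receptor of Ccl6 and Ccl9, at 54.6 against 261 CPM. Ccl5, which attracts T cells, was lower, at 1873 against 365 CPM, as were the monocyte attractants Ccl2, at 331 against 155 CPM, and Ccl7, at 598 against 214 CPM. Ccl8 was level at 552 and 572 CPM but lay in different numbers of cells, 34 and 136 of them. In DoubleTg, 10 cells gave 90.8% of its UMIs.

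Interferon-stimulated genes were lower in TripleTg for the members with the highest levels. Of 14 compared, 4 were at least 2-fold lower and none was higher, and the median log2 ratio was -0.82. Cxcl10, a T cell attractant, was at 792 CPM in DoubleTg and 129 CPM in TripleTg, Rsad2 at 599 and 141 CPM, and Isg15 at 693 and 259 CPM. Cxcl10 had a UMI in 31.1% and 9.41% of the thinned macrophages, against 3.22% and 3.61% of the epithelial marker cells. Irf7 and Gbp2 differed by less than 2-fold, and Ifi44 had a log2 ratio of 0.33 (0.03 to 0.62). The other cells of DoubleTg also held more Isg15, 110 against 57.7 CPM, and more Cxcl10, 55.2 against 30.9 CPM. For these genes the macrophages and the other cells were both lower in TripleTg.

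The windows of Cxcl10 and Rsad2, the members with the lowest ratios, held GAAA, any 2 bases and GAAA, the string that interferon regulatory factors read, shown in capitals. Of 12 promoters of interferon genes, 6 held it within 250 bases on either strand, against 2.98% of all promoters. Both genes lie on the minus strand, Cxcl10 with its window at chr5:92348890-92349139 and Rsad2 with its window at chr12:26456453-26456702. The match of Rsad2 is on the other strand.
Cxcl10: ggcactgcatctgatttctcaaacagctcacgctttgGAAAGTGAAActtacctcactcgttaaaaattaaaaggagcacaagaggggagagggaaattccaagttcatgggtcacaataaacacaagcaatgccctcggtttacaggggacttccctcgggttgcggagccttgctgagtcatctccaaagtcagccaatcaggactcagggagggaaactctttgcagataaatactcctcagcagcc
Rsad2: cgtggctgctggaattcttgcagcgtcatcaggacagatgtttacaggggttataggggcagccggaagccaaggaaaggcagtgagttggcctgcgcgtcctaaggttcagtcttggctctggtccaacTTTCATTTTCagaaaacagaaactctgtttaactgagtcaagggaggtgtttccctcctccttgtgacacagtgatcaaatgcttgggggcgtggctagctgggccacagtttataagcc

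**Figure D2:**
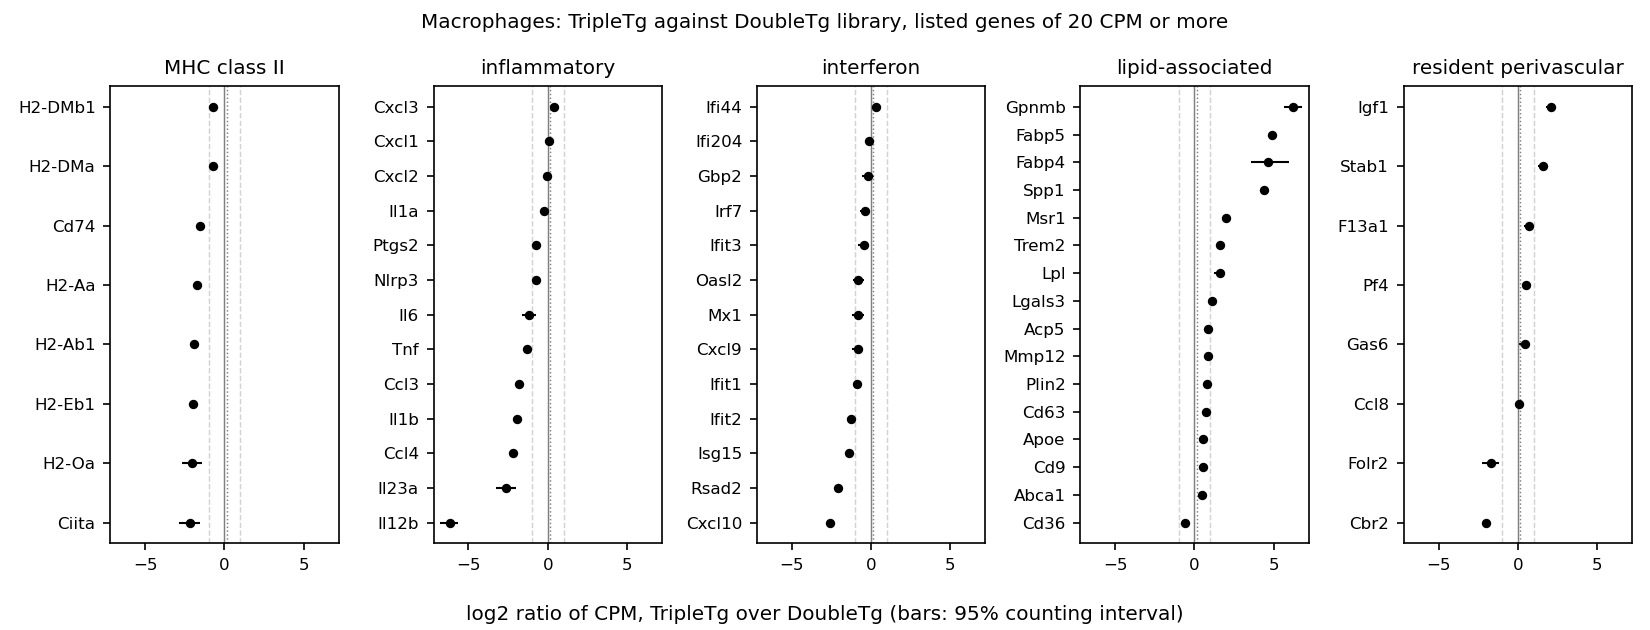
Log2 ratio of CPM in TripleTg over DoubleTg macrophages for reported genes of 5 lists with at least 20 CPM in either library. Points are genes, horizontal bars 95% counting intervals, solid lines 0, dotted lines the median of all genes (0.15) and dashed lines 2-fold. All 8 class II genes lie below 0, and 15 of 16 lipid-associated genes lie above the median of all genes.

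Genes of resident perivascular macrophages were mixed. Of 8 compared, 2 were at least 2-fold higher in TripleTg and 2 were lower. The median log2 ratio was 0.47, and it turned to -0.19 in the macrophages with the lower share of epithelial, secretory and Wnt target UMIs. Igf1, a growth factor, was at 30.0 and 126 CPM, and Stab1, a scavenger receptor, at 34.7 and 102 CPM. Folr2, a folate receptor, was lower at 27.8 against 8.56 CPM. Cbr2 was lower as well but lay below the other cells in both libraries. Lyve1, Timd4 and Cd163, which mark the resident population, were under 10 CPM in both. Genes of alternative activation were mixed likewise, with 2 of 8 higher and 2 lower. Arg1, which breaks down arginine, had 6 UMIs in DoubleTg (1.49 CPM) and was at 197 CPM in TripleTg (185 to 209), in 92 cells, against 5.17 and 9.41 CPM in the other cells. Il10 was at 264 and 236 CPM and Mgl2 at 72.2 and 63.4 CPM. Socs3, a brake on cytokine signals, was lower at 469 against 173 CPM. Of 11 receptors for phagocytosis compared, 4 were at least 2-fold higher in TripleTg and none was lower, among them Mertk, a receptor for dying cells, at 2.23 and 20.2 CPM against 3.76 and 1.71 CPM in the other cells, and the inhibitory Fc receptor Fcgr2b, at 91.0 and 255 CPM. Axl, a relative of Mertk, was at 145 and 107 CPM.

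Matrix proteases and inhibitors were mostly higher in TripleTg, 5 of 8 compared at 2-fold or more and 1 lower. Mmp19 was at 33.0 and 257 CPM and Adam8 at 40.2 and 121 CPM. Mmp12, the elastase of macrophages, was at 381 and 684 CPM, and Mmp13, a collagenase, was lower at 139 against 39.4 CPM. Timp1 was at 9.92 and 121 CPM, and the other cells held it at 55.0 and 98.5 CPM. Growth factor genes were closer, 2 of 13 higher and none lower. Vegfa, which drives vessel growth, was at 239 and 169 CPM, and Tgfb1 at 363 and 241 CPM. Grn, which encodes progranulin, was at 333 and 626 CPM. Osm, which encodes oncostatin M, was at 69.4 and 81.4 CPM and stood at under 1 CPM in the other cells.

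HGF and MET are the transgenic signal of these mice, and little of it was in the macrophages. Endogenous Hgf was at 15.6 and 14.7 CPM, below the other cells at 54.5 and 20.4 CPM. The transgene hHGFtg was at 61.3 and 18.3 CPM in macrophages, 15.9% and 21.3% of the level in the other cells. hMETtg was at 80.9 and 6.47 CPM, 20.1% and 16.5% of the other cells, which are close to the percentages of the epithelial genes. Of 8 listed genes of this axis compared, 3 were at least 2-fold lower in TripleTg, both transgenes and the protease inhibitor Spint2, and none was higher. Plau, the urokinase protease that can activate HGF, was higher in macrophages than in the other cells of both libraries, at 76.4 and 92.3 CPM against 14.9 and 50.1 CPM. Axin2, a target of β-catenin, was at 1.74 and 16.7 CPM in macrophages, against 3.14 and 72.4 CPM in the other cells.

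Iron and haem genes were level at the top, Ftl1 at 14682 and 15092 CPM, and Hmox1, which breaks down haem, was at 1198 and 1586 CPM. Slc40a1, the iron exporter, was the 1 of 7 compared that was 2-fold higher, at 2.98 and 20.7 CPM, below the other cells in both. Slc11a1, a metal transporter of the phagosome, was the 1 that was 2-fold lower, at 255 against 114 CPM. Among 8 checkpoint and inhibitory receptor genes, 2 were higher and none was lower by 2-fold. Cd274, which encodes PD-L1, was at 180 and 146 CPM, and Havcr2, which encodes TIM-3, at 186 and 118 CPM. Of 9 glycolysis and hypoxia genes compared, 1, Bnip3, was 2-fold higher, at 9.18 and 43.2 CPM. Immediate early and heat shock genes were lower in TripleTg, 7 of 13 at 2-fold or more and none higher, with Fos at 545 against 167 CPM and Ier2 at 319 against 91.1 CPM. In the other cells the Fos level was 282 and 186 CPM. Of the 13, 6 in DoubleTg and 2 in TripleTg were above their level in the other cells. Of 5 proliferation genes compared, 3 were 2-fold higher, with Mki67 at 22.1 and 53.5 CPM. The other cells differed in the same direction, with Mki67 at 2.23 and 11.9 CPM.

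By a rule of size, the extremes were the 15 highest and 15 lowest ratios among the 1632 genes at 50 CPM or more in either library and at or above the other cells where higher. Of the 15 highest, 8 were the globin genes Hba-a1, Hba-a2, Hbb-bs and Hbb-bt, the liver gene Alb, the neutrophil genes S100a8 and S100a9 and the histone gene Hist1h1b. In TripleTg macrophages 10 cells gave 94.3% of the Hbb-bs UMIs, 89.5% of the S100a8 UMIs, 96.2% of the Hist1h1b UMIs and 42.5% of the Alb UMIs. The other TripleTg cells held Alb at 49.0 CPM, against 104.6 CPM in macrophages. The other 7 were Arg1, Hal, Atp6v0d2, Gpnmb, Fabp5, Syngr1 and Spp1. Hal, which breaks down histidine, had 0 UMIs in DoubleTg macrophages and was at 63.0 CPM in TripleTg, at least 84.6-fold higher against a floor of 3 counts over the group. It was under 1 CPM in the other cells. Atp6v0d2, a subunit of the proton pump, had 2 UMIs in DoubleTg and was at 55.0 CPM in TripleTg. Its log2 ratio was 6.21 with the DoubleTg sum set to the floor of 3 counts. The interval on the counts as they are was 4.93 to 9.85. The 15 lowest were Erdr1, Il12b, Il2ra, Cd207, Icosl, H2-Q6, Klrb1b, Ccr7, Cxcl10, Slc2a6, Dusp2, Ccl5, Tnfsf9, H2-M2 and Gdf15. Erdr1 was at 112 and 0.38 CPM in macrophages, and it differed in the same direction in the other cells, at 72.9 and 0.17 CPM. Il2ra, the α chain of the interleukin 2 receptor, was at 78.9 and 4.95 CPM, and Icosl, a ligand that stimulates T cells, was at 95.5 and 11.4 CPM. Cd207, which encodes langerin, was at 126 and 14.7 CPM, with 60.9% of the DoubleTg UMIs in 10 cells. Ccr7, a dendritic list gene, was at a log2 ratio of -2.88. Leaving out the macrophages with a UMI of that list removes every Ccr7 UMI, so that setting cannot bear on Ccr7.

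**Figure D3:**
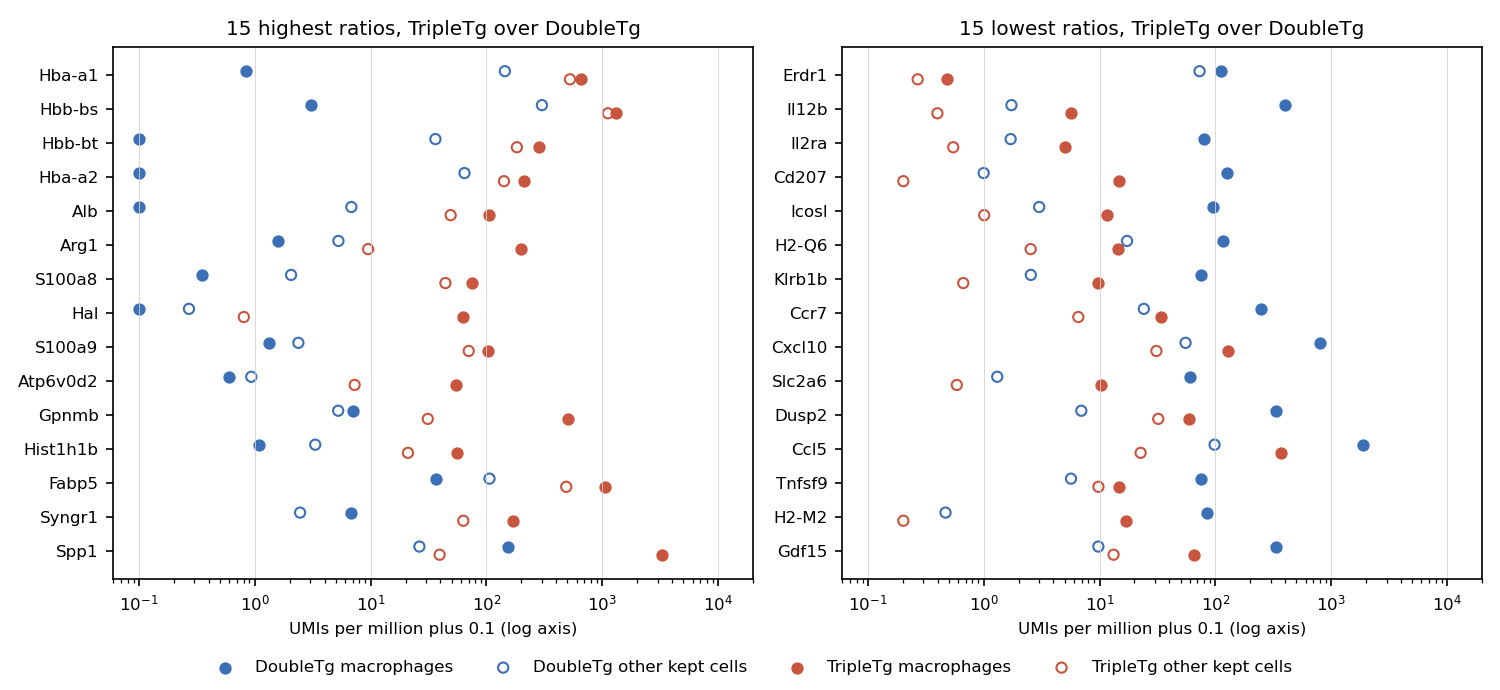
Levels of the 15 genes with the highest and the 15 with the lowest ratio of TripleTg over DoubleTg, in CPM plus 0.1 on a log axis. Filled points are macrophages and open points the other kept cells, blue for DoubleTg and red for TripleTg. For Erdr1 and the globin genes the open points are apart between the libraries in the same direction, while for Hal, Gpnmb and Spp1 the TripleTg macrophages, and for Il12b the DoubleTg macrophages, stand above the other points.

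States were read per cell, as 2 or more genes of a list with a UMI after thinning to 2000 UMIs, which left out 15 DoubleTg and 14 TripleTg cells. A state is a range of a count and not a cell type, and a cell can be in several. The inflammatory state held 90.9% of DoubleTg macrophages (87.0 to 93.9) and 74.8% of TripleTg ones (70.2 to 79.0), a difference of -16.1 percentage points (-21.4 to -10.5). The interferon state held 40.5% and 21.4%, a difference of -19.2 points (-26.0 to -12.2). The lipid-associated state, without Apoe, Cd63 and Lgals3, held 69.6% and 88.3%, but the epithelial marker cells, with a median depth of 23121 and 21896 UMIs before thinning, reached 15.1% and 48.4% on the same genes. The resident perivascular state, without Igf1, held 8.45% and 27.2%, against 3.61% and 1.20% of the epithelial marker cells. Its genes did not all share this direction. Pf4 had a UMI in 13.9% and 33.8% of the thinned macrophages and Ccl8 in 6.76% and 21.4%, but Cbr2 in 7.09% and 3.56%. Folr2 was also lower in TripleTg, and Lyve1, Timd4 and Cd163 were low in both, as given above. The share is therefore not a count of resident cells. The monocyte state held 0 of 296 cells in DoubleTg, which allows a share of up to 1.24%, and 4.07% in TripleTg, against 2.13% of the epithelial marker cells. The proliferation state held 8.78% and 11.7%, and in the epithelial marker cells 9.21% and 12.97%, so the macrophages did not exceed them. Before thinning the inflammatory state held 93.2% and 94.3%, the interferon state 73.3% and 60.2% and the lipid-associated state 94.5% and 97.8%. The states overlapped: 92.7% of lipid-associated DoubleTg cells and 75.2% of lipid-associated TripleTg cells were also inflammatory.

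**Figure D4:**
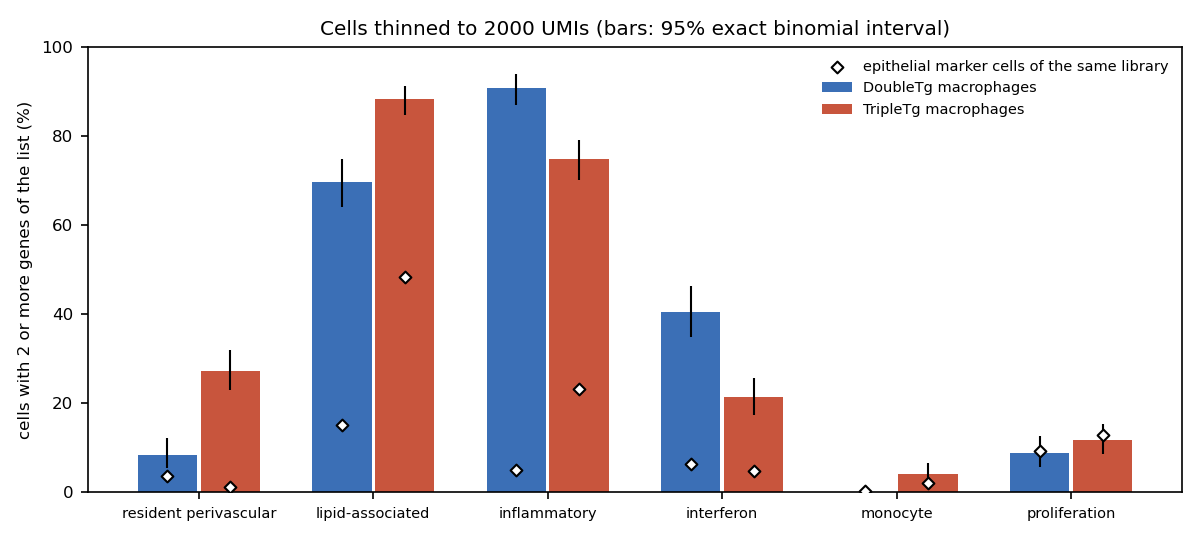
Share of macrophages with 2 or more genes of each list after thinning to 2000 UMIs, blue for 296 DoubleTg and red for 393 TripleTg cells, with 95% exact binomial intervals. Diamonds give the epithelial marker cells of the same library. The inflammatory and interferon shares are lower in TripleTg and the resident perivascular and lipid-associated shares higher, while the proliferation shares meet the diamonds.

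In TripleTg the class II level and the lipid-associated level went in opposite directions over cells. Spearman's rho between them was -0.57 over 393 thinned cells, and it was -0.05 over 296 DoubleTg cells. The cells of each value share a library and a fixed depth of UMIs. The rho of class II with Lyz2 was -0.43 in TripleTg and 0.05 in DoubleTg, and with epithelial UMIs 0.02 and -0.28.

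A cut at 200 class II UMIs per 10000, chosen after the values were seen, divided the macrophages for a closer description. It left 284 DoubleTg cells (91.3%) and 194 TripleTg cells (47.7%) at or above it, and 24 and 31 cells lay between 150 and 250. The TripleTg cells below the cut had a median of 14180 UMIs and those above it 8276 UMIs, with 9.27 and 11.7 epithelial UMIs per 10000. Of the 16 lipid-associated genes, 7 were at least 2-fold higher below the cut than above it in TripleTg and none was 2-fold lower. The share of all genes past 2-fold across the cut was not computed, so this count has no background to be read against. Cd36, Plin2 and Fabp4 had intervals that hold 0, Cd63 was about level at 1972 and 1869 CPM, and Abca1, a cholesterol exporter, was higher above the cut, at 579 against 463 CPM. Spp1 was at 4759 CPM below and 176 CPM above it, close to the 156 CPM of DoubleTg cells above the cut. Gpnmb was at 732 and 52.2 CPM, Fabp5 at 1431 and 304 CPM and Mmp12 at 881 and 285 CPM. Outside the list, Arg1 was at 290 and 8.61 CPM and Ctsd at 4150 and 903 CPM. Trem2 was at 649 and 240 CPM, and Lpl, a lipase, at 92.5 and 16.1 CPM. TripleTg cells above the cut had instead more Ccl8 (1265 against 228 CPM), Cxcl2 (13905 against 4757 CPM), Il10 (440 against 135 CPM), Mmp19 (533 against 121 CPM), Clec10a (93.6 against 14.5 CPM), Mgl2 (170 against 10.2 CPM) and Ccr2 (31.0 against 2.28 CPM). Ccr2 is the receptor by which monocytes enter tissue. Some markers of other cell types were also higher above the cut, among them the neutrophil genes S100a8 (199 against 12.8 CPM) and S100a9 (289 against 10.8 CPM). So were Ccr7 of the dendritic list (83.2 against 9.39 CPM) and Cd207, which is not on it (32.1 against 5.98 CPM). Fscn1 of the dendritic list went the other way, at 1.72 against 9.39 CPM, from 3 and 33 UMIs. The part of other cell types in these differences was not tested.

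Several differences between the libraries were also present among cells above the cut. Il12b was at 381 CPM in DoubleTg and 1.72 CPM in TripleTg cells above it. The log2 ratio above the cut was -1.59 for Il1b (-1.66 to -1.53), -1.82 for Ccl5, -1.85 for Cxcl10 and -1.14 for Ccl4, against 2.02 for Lyz2, 2.35 for Ctsl and 3.93 for Mmp19. It was 0.18 for Spp1 (-0.03 to 0.38) and -0.16 for Lpl (-0.86 to 0.51), whose intervals hold 0. Cxcl2 was 0.68 above the cut, where over all macrophages it was -0.04. Class II genes themselves are not read across this cut, which they set.

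**Figure D5:**
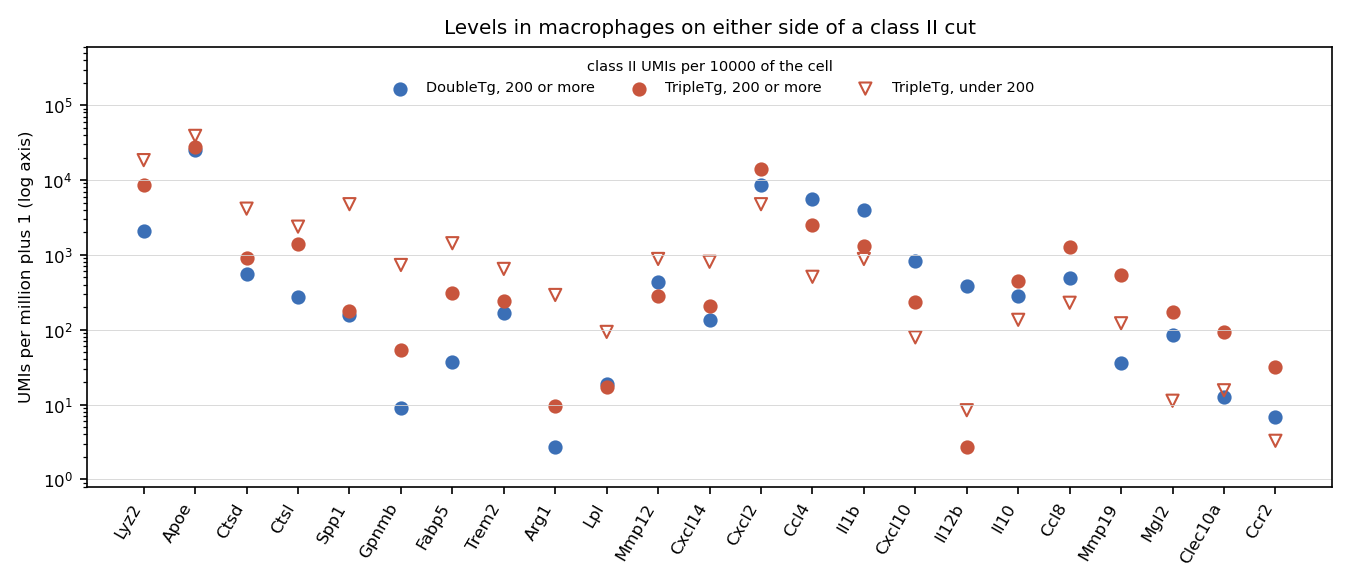
Levels of 23 genes, in CPM plus 1 on a log axis, in DoubleTg macrophages at 200 or more class II UMIs per 10000 (blue, 284 cells) and in TripleTg macrophages at or above (filled red, 194 cells) and below that cut (open red triangles, 213 cells). For Spp1, Arg1, Gpnmb and Lpl the triangles stand apart from both filled points, and for Il12b, Il1b and Lyz2 both TripleTg groups stand apart from DoubleTg.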

How the data were processed

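Cells of 1 DoubleTg and 1 TripleTg library, from prostate tissue with tumour lesions, were profiled by droplet 3′ single-cell RNA-seq. The authors deposited UMI counts per gene and cell, made with Cell Ranger (6.0.2 per the labels, 6.1.1 per the file headers of the DoubleTg matrix) on mm10 with the transgene sequences added. The DoubleTg matrix held 12072 cells. All 9492 TripleTg cells already met the limits on genes and mitochondrial share, and the study's methods give the same number after its filter. That library therefore appears to have been filtered before deposit. Of the DoubleTg cells, 10598 met these limits. The study's numbers for DoubleTg, before and after its filter, are different from the 12072 and the 10598. The TripleTg features carry symbols only.

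The counts of the macrophages were summed per library and divided by their total (CPM). With 1 library per group the planned description has no test. Intervals are exact Poisson for sums, exact Clopper-Pearson for shares and conditional binomial for ratios, at 95%, and cover counting error only. Genes with at least 20 CPM in either library were compared, and 2-fold was called a difference. Sums under 3 UMIs, 0 included, were set to 3 counts over the group for ratios. Such a ratio is a lower bound on the difference where only 1 of the sums was under the floor. The intervals used the counts as they were. Named genes were the 15 highest and 15 lowest ratios at 50 CPM or more in either library and at or above the other cells of the library where they were higher, and the 15 highest over the other cells, besides the listed genes. Cells were thinned to 2000 UMIs for shares of cells. Epithelial marker cells were kept cells other than the macrophages, with no Ptprc UMI and at least 10 epithelial UMIs per 10000. Doublets were not removed: Scrublet in scanpy 1.11.5 called 289 cells in DoubleTg, 16 of them macrophages, and 0 in TripleTg, where it cannot be taken to have worked. Python 3.11.15 and edgeR 4.0.16 (TMM factors only) were used, and the ratio and interval code was tested on simulated data. Promoters and gene spans are from RefSeq GRCm38.p6 and GENCODE M21. The members, gene lists and class II cut were chosen with earlier results of these data known. Single values of some listed genes are not reported here.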

Additional observations from a re-analysis of the deposited data

How the results depend on the processing

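No paired analysis was possible because each group has 1 library, so no replicate could be left out either. The alternative without Scrublet doublets was not run, since it called none in TripleTg. In no case was the cause of a move tested. The median log2 ratio of the class II list was -1.95 with at least 20 complement UMIs per 10000, -2.08 in the macrophages with the lower share of epithelial, secretory and Wnt target UMIs, -1.43 thinned to 2000 UMIs and -1.99 with TMM factors. The lipid-associated median was 1.14 in the low-epithelial macrophages, 0.83 with TMM factors and 0.88 at 50 CPM or more. The resident perivascular median turned to -0.19 in the low-epithelial macrophages and was 0.75 thinned and 0.22 with no filter on low genes. The inflammatory median was -1.41 thinned. Genes past 2-fold numbered 1117 thinned, 403 at 50 CPM or more and 3005 with no filter, against 741. Those higher in TripleTg numbered 708 in the low-epithelial macrophages, 740 thinned, 225 at 50 CPM or more and 1979 with no filter, and those higher in DoubleTg 178 at 50 CPM or more and 1026 with no filter. With at least 2 receptors, macrophages were 2.48% and 3.82% of cells. With at least 3 genes the TripleTg minus DoubleTg difference was 7.66 points for the resident, 29.0 for the lipid-associated and 0.763 for the monocyte state, and the monocyte difference was 1.15 points thinned to 1000 UMIs.

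The other alternatives were chosen after seeing the data. Without macrophages with a UMI of a dendritic gene the lipid-associated median was 1.32 and Il23a turned to 1.41. Above the class II cut the medians were 1.14 for the resident, 0.51 for the lipid-associated and -0.39 for the inflammatory list, Lpl turned to -0.16 and Retnla to 0.57. Retnla, from 6 and 5 cells, also turned, to 0.80, with at least 20 complement UMIs, and was -8.60 in the low-epithelial macrophages and -8.74 without those with a dendritic UMI. Over single genes and all settings run, 781 values moved by less than counting error, 355 moved by more and 4 reversed. A change of sign was counted as reversed only for genes at least 2-fold apart in the main setting. Changes of sign in genes with smaller ratios, such as Cxcl2 above the class II cut, are among the 781 and the 355. The settings at 50 CPM or more and with no filter on low genes leave single ratios as they are. Part of the 781 therefore could not move.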
